A study of Mus musculus with 9 samples.

Results

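The immunity-related GTPases, or IRG proteins, are large GTPases that mouse cells make after exposure to interferon-gamma. Described here are the 8 IRG genes *Iigp1*, *Igtp*, *Irgm1*, *Irgm2*, *Tgtp1*, *Tgtp2*, *Gm4841* and *F830016B08Rik* in mouse hearts. They were chosen by gene name, and the choice was made with their levels in these libraries already known, so differences between groups in these 8 genes are given as descriptions and carry no p-value. They are 8 of 41710 gene names and 21 of 127558 transcripts of the deposited tables.

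The hearts came from male FVB/N mice aged 8 months, 3 mice per group, and each library held the RNA of 1 heart. Tg-RKIP mice carried a transgene for RKIP, the RAF kinase inhibitor protein encoded by *Pebp1*, which the study describes as driven in the myocardium by the alpha-MHC promoter and as leading to symptoms of heart failure. The mice labelled Tg-GRK2 are described as carrying a transgene for GRK2, a kinase of G-protein-coupled receptors, and the promoter of that transgene is not given in the sources used here. The FVB group was non-transgenic. All 3 groups shared strain, sex, age, diet and housing, and no infection or interferon treatment is named for any of them.

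The genes lay in 3 groups on the GRCm39 assembly that the submitters' processing notes name. *Irgm1* (chr11:48752795-48762510, minus strand), *Tgtp1* (chr11:48876154-48884999, minus strand) and *Tgtp2* (chr11:48948021-48955033, minus strand) were neighbours. *Igtp* (chr11:58090382-58098417) and *Irgm2* (chr11:58090444-58113608) were on the plus strand further along the same chromosome, and the first *Irgm2* transcript starts within the first exon of *Igtp*. *Gm4841* (chr18:60401377-60406344, minus strand), *F830016B08Rik* (chr18:60426452-60436088, plus strand) and *Iigp1* (chr18:60509099-60525706, plus strand) formed the third group. *Gm4841* and *F830016B08Rik* carry the names of gene models, and each had 1 transcript in the tables.

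IRG genes are switched on by interferon-gamma through its receptor and the JAK kinases, and the signal acts on a promoter element called GAS. Type I interferons act through a related element called ISRE. The proteins are best known for attacking the membrane around intracellular parasites. IIGP1 (also called IRGA6) and the TGTP proteins (IRGB6) are effectors that load onto that membrane, while IRGM1, IRGM2 and IGTP (IRGM3) sit on the cell's own membranes, hold the effectors inactive there and take part in autophagy.

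The sequences just before the transcript start show what several of these promoters have in common. They are RefSeq promoter sequences on GRCm38.p6, written 5′ to 3′ on the strand of the gene, with matches to GAS (TTC, any 3 bases, GAA) and ISRE (GAAA, any 2 bases, GAAA) in capitals. Both strands of the 250 bases before the start were searched, and 5 of the 8 genes had a promoter that could be shown. Coordinates are those of the printed window.
Igtp, chr11:58199471-58199555, plus strand: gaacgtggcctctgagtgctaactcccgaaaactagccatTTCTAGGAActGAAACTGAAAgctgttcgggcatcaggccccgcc
Irgm2, chr11:58214862-58214962, plus strand: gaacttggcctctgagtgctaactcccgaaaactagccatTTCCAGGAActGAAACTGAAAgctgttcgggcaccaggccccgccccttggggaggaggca
Tgtp1, chr11:48992274-48992374, minus strand: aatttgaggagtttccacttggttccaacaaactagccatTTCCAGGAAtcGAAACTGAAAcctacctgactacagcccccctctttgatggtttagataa
Tgtp2, chr11:49064233-49064333, minus strand: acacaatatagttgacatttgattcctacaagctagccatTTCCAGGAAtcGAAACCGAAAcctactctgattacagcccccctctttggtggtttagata
Irgm1, chr11:48871421-48871490, minus strand: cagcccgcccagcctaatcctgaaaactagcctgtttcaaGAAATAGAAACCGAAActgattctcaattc

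In *Igtp*, *Irgm2*, *Tgtp1* and *Tgtp2* a GAS match was followed by an ISRE match, with 2 bases between them. Counted back from the transcript start, the GAS match began at base -45 in *Igtp*, -75 in *Irgm2*, -88 in *Tgtp1* and -81 in *Tgtp2*. *Irgm1* had 2 overlapping ISRE matches, which began at bases -30 and -24, and no GAS match in the 250 bases. Over all 32851 RefSeq promoter windows of the same length, 2.98% held an ISRE match, 7.02% a GAS match and 0.332% both. A match to these letters is a description of the sequence and not evidence of binding.

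**Figure D1:**
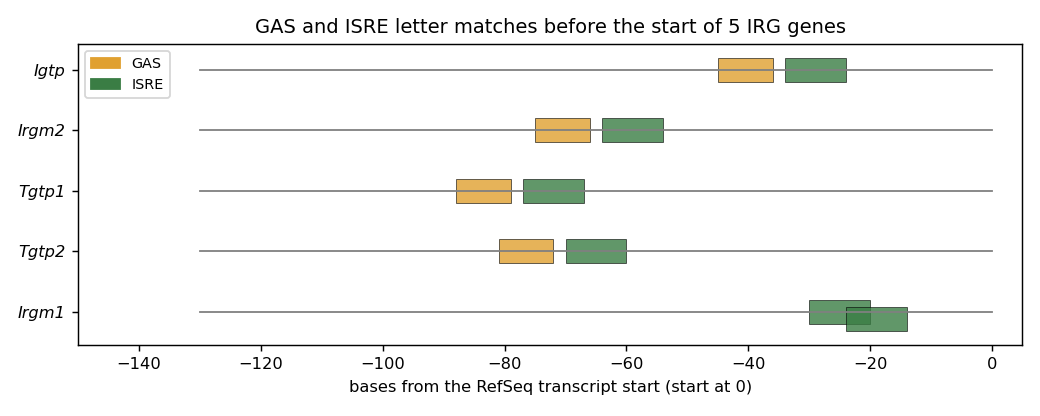
Matches to GAS (yellow) and ISRE (green) by their distance in bases from the RefSeq transcript start, for the 5 IRG genes with a printed promoter. The GAS and ISRE matches stand side by side in *Igtp*, *Irgm2*, *Tgtp1* and *Tgtp2*, starting between 88 and 45 bases before the start, while *Irgm1* shows 2 overlapping ISRE matches.

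The libraries held 25458108 to 33447654 reads assigned to transcripts. *Pebp1* was higher in Tg-RKIP than in FVB by 4.81 on the log2 scale. *Grk2* was not called different in the hearts labelled Tg-GRK2 (log2 fold change 0.05, Benjamini-Hochberg adjusted p = 0.354 in edgeR's quasi-likelihood test), with a mean of 27.3 TPM against 27.1 TPM in FVB, so these hearts are referred to by their label. Whether reads of that transgene were counted under *Grk2* was not tested. Cardiomyocyte markers summed to 47340 to 49690 TPM (transcript level per length, scaled to the library) over the 9 heart libraries. In Tg-RKIP 8 of the 10 fell and 1 rose under TMM, and 6 fell and 4 rose with scaling to library size alone. Reads from mitochondrial genes made up 11.5% to 11.8% of the Tg-RKIP libraries and 22.4% to 23.2% of the others. Under TMM, the normalization used for fold changes, the median log2 fold change of all genes tested between Tg-RKIP and FVB was 0.01. Scaling to library size alone moved that median to 0.38, and fold changes of Tg-RKIP should be read against that shift. The airway markers *Scgb1a1* and others summed to 201 to 210 TPM in the hearts labelled Tg-GRK2, 94.9 to 101 TPM in Tg-RKIP and 0.411 to 0.873 TPM in FVB, where 5 of the 9 markers were listed at 0. Their part in the results was not tested.

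The 8 IRG genes together made up 189 ± 0.626 TPM in FVB hearts (mean ± SD, n = 3). The same sum was 48.8 ± 0.881 TPM in the hearts labelled Tg-GRK2 and 47.6 ± 1.02 TPM in Tg-RKIP. All FVB libraries lay far above the 6 others, and the TPM sums of the other 2 groups (the Tg groups) lay close together. TPM is a level per transcript length, so it can be compared between genes of a library. Between libraries it moves with what else was sequenced, and on the log2(TPM + 0.1) scale the median of all genes lay 0.43 higher in Tg-RKIP than in FVB, so the nearness of the 2 lower sums holds for TPM and not for TMM-normalized counts. In bulk tissue fewer cells of a type and less RNA per cell cannot be told apart. In FVB, *Iigp1* had the highest level and *Igtp*, *Irgm2*, *Irgm1*, *F830016B08Rik*, *Tgtp2*, *Tgtp1* and *Gm4841* followed in that order.

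Among the effectors, *Iigp1* was listed at 52.8, 52.6 and 53.5 TPM in the FVB libraries 1, 2 and 3, at 11.0, 11.9 and 11.1 TPM in those labelled Tg-GRK2 and at 10.1, 9.80 and 9.20 TPM in Tg-RKIP. All FVB values were high, no groups overlapped, and the step between the 2 Tg groups was small. On TMM-normalized counts the log2 fold change of *Iigp1* was -2.86 (SE 0.037) for Tg-RKIP against FVB and -2.29 (SE 0.036) for the hearts labelled Tg-GRK2 against FVB. The first corresponds to a level 7.27-fold lower and the second to a level 4.90-fold lower. These 2 comparisons share the FVB libraries, here and for every gene below.

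*Tgtp2* encodes the second effector of the family. It was listed at 16.0, 16.0 and 16.1 TPM in FVB, at 4.03, 5.37 and 4.18 TPM in the hearts labelled Tg-GRK2 and at 4.81, 5.23 and 5.93 TPM in Tg-RKIP. The FVB libraries were above all others, and the 2 Tg groups overlapped. Against FVB, the log2 fold change was -2.00 (SE 0.075) in Tg-RKIP and -1.88 (SE 0.077) in the hearts labelled Tg-GRK2.

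*Tgtp1*, a near-copy of *Tgtp2* that encodes an almost identical effector, was lower in level and far more variable. Its TPM was 7.14, 7.98 and 7.95 in FVB, 3.21, 0.777 and 2.18 in the hearts labelled Tg-GRK2, and 1.31, 0.412 and 0.556 in Tg-RKIP. In reads these were 366, 447 and 403 in FVB, 107, 40 and 132 in the hearts labelled Tg-GRK2, and 62, 9 and 26 in Tg-RKIP. Neither Tg group overlapped FVB, but they overlapped each other, and replicate 2 was the lowest of its group in both. The log2 fold change against FVB was -4.00 (SE 0.29) in Tg-RKIP and -2.22 (SE 0.24) in the hearts labelled Tg-GRK2. Without Tg-RKIP replicate 1 the first value was -4.95, and without Tg-RKIP replicate 2 it was -3.43.

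The division of reads between these near-identical genes is uncertain. In the GENCODE M21 transcript sequences, 89.4% of the 50-base windows of the main *Tgtp1* transcript, the length of 1 read, also occurred in *Tgtp2*, and how the authors assigned such reads is not given in the sources used here. *Tgtp1* took 31.0%, 32.8% and 33.4% of the summed *Tgtp1* and *Tgtp2* reads in FVB (95% Wilson intervals within 28.4% to 36.1%). It took 34.0% (29.0% to 39.4%), 12.7% (9.47% to 16.8%) and 34.4% (29.8% to 39.3%) in the hearts labelled Tg-GRK2. In Tg-RKIP it took 21.5% (17.2% to 26.6%), 2.75% (1.45% to 5.15%) and 8.61% (5.94% to 12.3%). The share was steady in FVB and moved between replicates of both Tg groups by more than these intervals, which cover counting error only.

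Added together as 1 gene, *Tgtp1* and *Tgtp2* gave 23.1, 24.0 and 24.0 TPM in FVB, 7.24, 6.15 and 6.36 TPM in the hearts labelled Tg-GRK2 and 6.12, 5.64 and 6.48 TPM in Tg-RKIP. The sum was even within every group. Its log2 fold change against FVB was -2.40 (SE 0.054) in Tg-RKIP and -1.98 (SE 0.054) in the hearts labelled Tg-GRK2, which lies close to the values of *Tgtp2* alone and far from the -4.00 of *Tgtp1* alone in Tg-RKIP.

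Of the regulators, *Igtp* was listed at 38.2, 39.0 and 38.6 TPM in FVB, at 8.77, 8.66 and 8.37 TPM in the hearts labelled Tg-GRK2 and at 8.20, 8.45 and 8.65 TPM in Tg-RKIP. FVB stood apart, and the 2 Tg groups overlapped. Against FVB, the log2 fold change was -2.64 (SE 0.044) in Tg-RKIP and -2.23 (SE 0.044) in the hearts labelled Tg-GRK2.

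*Irgm2* followed *Igtp* closely. It was listed at 26.9, 26.3 and 25.7 TPM in FVB, at 6.94, 6.75 and 7.22 TPM in the hearts labelled Tg-GRK2 and at 6.68, 6.18 and 5.60 TPM in Tg-RKIP. No groups overlapped, although the gap between the 2 Tg groups was under 0.1 TPM. The log2 fold change against FVB was -2.52 (SE 0.046) in Tg-RKIP and -1.97 (SE 0.045) in the hearts labelled Tg-GRK2.

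*Irgm1*, the regulator best known for its role in autophagy and in resistance to mycobacteria, differed least from FVB. Its TPM was 22.2, 22.9 and 22.4 in FVB, 11.5, 12.0 and 11.0 in the hearts labelled Tg-GRK2, and 16.6, 17.3 and 15.8 in Tg-RKIP. No groups overlapped, and in TPM Tg-RKIP lay between the others, the reverse of the order of *Iigp1* and *Irgm2*. Against FVB, the log2 fold change was -0.86 (SE 0.045) in Tg-RKIP and -1.02 (SE 0.048) in the hearts labelled Tg-GRK2, that is 1.82-fold and 2.03-fold lower.

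The 2 gene models showed the greatest differences. *Gm4841* was listed at 6.87, 6.90 and 7.28 TPM in FVB, at 0.595, 0.831 and 0.624 TPM in the hearts labelled Tg-GRK2 and at 0.316, 0.407 and 0.298 TPM in Tg-RKIP. Its reads were 354, 405 and 371 in FVB, 32, 43 and 38 in the hearts labelled Tg-GRK2, and 15, 25 and 14 in Tg-RKIP, so no groups overlapped but the last values rest on few reads. The log2 fold change against FVB was -4.75 (SE 0.13) in Tg-RKIP and -3.41 (SE 0.12) in the hearts labelled Tg-GRK2, and the latter was the 10th lowest of 15504 genes tested.

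*F830016B08Rik* had the widest gap between the 2 Tg groups, 11.7-fold in mean TPM. It was listed at 18.1, 17.8 and 17.5 TPM in FVB, at 3.14, 3.10 and 3.11 TPM in the hearts labelled Tg-GRK2 and at 0.272, 0.182 and 0.348 TPM in Tg-RKIP. Reads were 1081, 1215 and 1033 in FVB, 196, 186 and 220 in the hearts labelled Tg-GRK2, and 15, 13 and 19 in Tg-RKIP. The 3 groups formed 3 separate levels with little spread. Against FVB, the log2 fold change was -6.50 (SE 0.094) in Tg-RKIP, the 11th lowest of 15504 genes tested and 90.7-fold lower, and -2.56 (SE 0.058) in the hearts labelled Tg-GRK2, 5.90-fold lower.

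**Figure D2:**
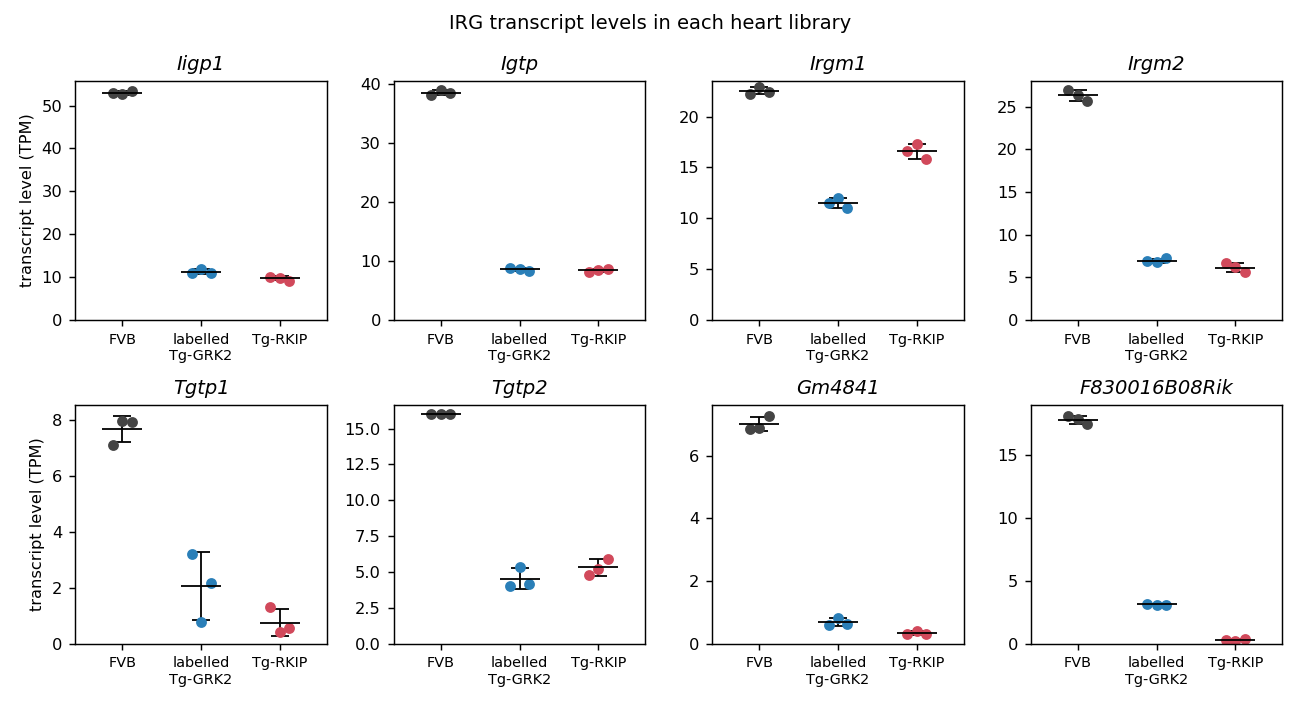
TPM of each IRG gene in the 9 heart libraries, with 1 point per library and black bars for the mean and SD of 3 libraries per group. The FVB points lie above all others in every panel, *Irgm1* keeps the highest level in Tg-RKIP (16.6 ± 0.744 TPM), and *F830016B08Rik* lies at 3.12 ± 0.0214 TPM in the hearts labelled Tg-GRK2 and at 0.267 ± 0.0829 TPM in Tg-RKIP.

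Counted over the family, all 8 genes were called lower in Tg-RKIP than in FVB at an adjusted threshold of 0.05, where 37.1% of the 15504 genes tested were called lower and 36.8% higher. All 8 were also called lower in the hearts labelled Tg-GRK2, against a background of 12.2% called lower and 12.2% higher. In TPM none of the 8 overlapped FVB in either comparison, and 14.4% of genes were lower without overlap in Tg-RKIP and 10.8% in the hearts labelled Tg-GRK2. The median log2 fold change of the 8 was -2.75 in Tg-RKIP and -2.23 in the hearts labelled Tg-GRK2. All 8 passed the filter on low counts. Because these contrasts were in view when the genes were chosen, nothing is read from the counts.

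Between Tg-RKIP and the hearts labelled Tg-GRK2, 6 of the 8 were called lower in Tg-RKIP, *Irgm1* was called higher, and *Tgtp2* was not called, against 36.6% of all genes called lower and 37.9% higher. The log2 fold change was -3.94 (SE 0.14) for *F830016B08Rik*, -1.78 (SE 0.38) for *Tgtp1* and -1.34 (SE 0.21) for *Gm4841*. The value of *Tgtp1* rests on the uncertain division of reads, and *Tgtp1* and *Tgtp2* added as 1 gene gave -0.42 (SE 0.069). The log2 fold change of *Iigp1* was -0.57 (SE 0.046), that of *Irgm2* -0.55 (SE 0.058) and that of *Igtp* -0.41 (SE 0.058). It was 0.15 (SE 0.051) for *Irgm1* and -0.12 (SE 0.095) for *Tgtp2*. Thus *F830016B08Rik*, *Tgtp1* and *Gm4841* differed by the most. They also had the lowest levels in Tg-RKIP, which enter the difference itself. *Iigp1*, *Igtp* and *Irgm2* differed by little more than the shift between scalings. With scaling to library size alone, *Iigp1* differed by -0.21, *Irgm2* by -0.19 and *Igtp* by -0.05, and *Tgtp2* turned to 0.25. Under that scaling 5 of the 8 were called lower and 2 higher, beside 2847 of all 15504 genes tested lower and 9608 higher. With limma on log2(TPM + 0.1) without a filter 4 were called lower and 1 higher, beside 2494 of 27280 genes lower and 9534 higher.

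**Figure D3:**
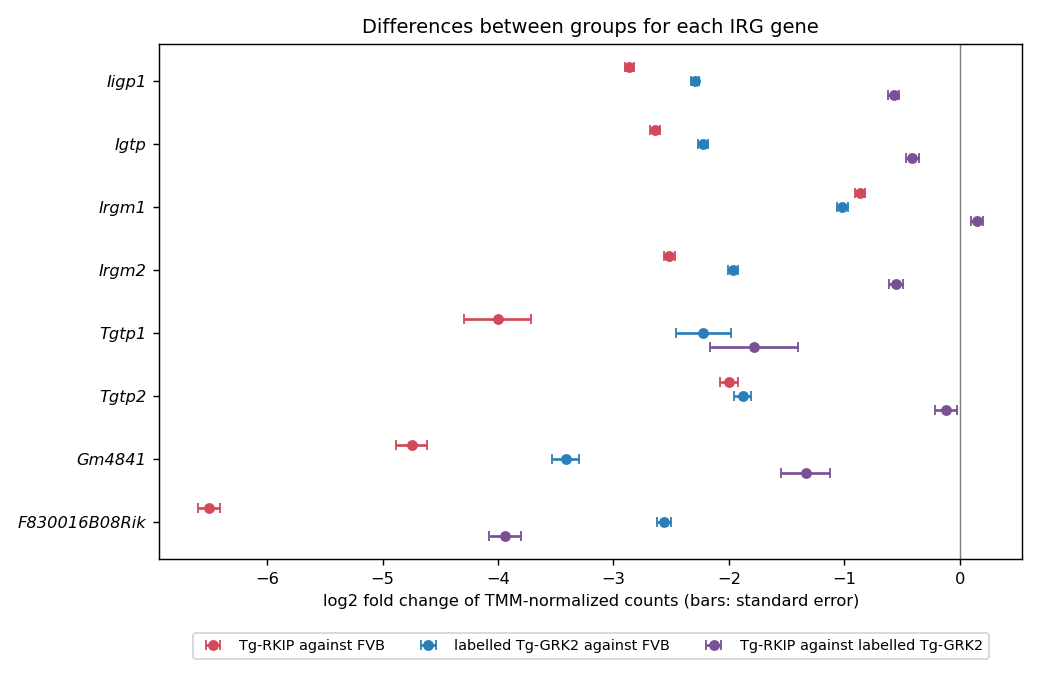
Log2 fold change of TMM-normalized counts for each IRG gene (points) with its standard error (bars), in 3 comparisons. Tg-RKIP and the hearts labelled Tg-GRK2 lie below FVB for all 8 genes, from -6.50 for *F830016B08Rik* to -0.86 for *Irgm1* in Tg-RKIP. The points for Tg-RKIP against the hearts labelled Tg-GRK2 lie near 0 except for *Tgtp1*, *Gm4841* and *F830016B08Rik*. *Tgtp1* and *Tgtp2* added as 1 gene, not drawn, gave -0.42 in that comparison.

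The make-up of the family's RNA therefore differed between the groups. *Irgm1* made up 11.9% ± 0.142 of the summed TPM of the 8 genes in FVB, 23.6% ± 0.649 in the hearts labelled Tg-GRK2 and 34.9% ± 1.08 in Tg-RKIP (mean ± SD, n = 3). It was the most abundant member in Tg-RKIP, whereas *Iigp1* was the most abundant in FVB with 28.0% ± 0.287 and made up 20.4% ± 0.560 in Tg-RKIP. *F830016B08Rik* went from 9.41% ± 0.175 in FVB to 6.39% ± 0.124 in the hearts labelled Tg-GRK2 and 0.564% ± 0.185 in Tg-RKIP. *Irgm2* kept a similar share in all groups, with 13.9% ± 0.358 in FVB, 14.3% ± 0.733 in the hearts labelled Tg-GRK2 and 12.9% ± 0.884 in Tg-RKIP. A share within the family is the same under any scaling of a library.

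At the level of transcripts, most genes were carried by 1 form. Transcript 4 of *Iigp1* (ENSMUST00000066912) had 2711, 3112 and 2737 reads of the gene's 2804, 3175 and 2791 in FVB, and 478, 616 and 444 of 496, 618 and 445 in Tg-RKIP. Transcript 1 of *Igtp* (ENSMUST00000035266) had all reads of the gene in FVB libraries 1 and 3 and 1568 of 1625 in library 2. In Tg-RKIP it had 219 of 270, 318 of 363 and 268 of 287, and the other reads were assigned to transcript 2. The same main form thus carried each of these genes in every group.

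*Irgm1* and *Irgm2* were each divided over several transcripts. For *Irgm1*, transcript 3 had 622, 660 and 613 reads in FVB, 368, 270 and 311 in the hearts labelled Tg-GRK2, and 384, 650 and 479 in Tg-RKIP, and nearly all other reads went to transcript 2. For *Irgm2*, the form that starts within *Igtp* (transcript 1, ENSMUST00000058704) had 591, 669 and 740 reads in FVB, 62, 71 and 21 in the hearts labelled Tg-GRK2, and 20, 177 and 9 in Tg-RKIP. Transcript 3 (ENSMUST00000108836) had 804, 881 and 356 in FVB, 307, 304 and 371 in the hearts labelled Tg-GRK2, and 312, 237 and 258 in Tg-RKIP. Transcript 1 was lower in all 6 Tg libraries than in FVB, Tg-RKIP replicate 2 stood above the other 5, and transcript 3 of FVB library 3 fell within the range of the Tg libraries.

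These assignments rest on short stretches of sequence. Only 0.850% to 2.82% of the 50-base windows of each *Irgm2* transcript occurred in no other *Irgm2* transcript, and 7.07% of the windows of transcript 1 also occurred in *Igtp*. With transcript 3 in place of the sum, the log2 fold change of *Irgm2* was -1.70 in Tg-RKIP and -1.13 in the hearts labelled Tg-GRK2. For *Igtp* 12.3% of the windows of the main transcript occurred in *Irgm2*. For *Iigp1* 3.48%, for *Irgm1* 1.08%, for *Gm4841* 10.4% and for *F830016B08Rik* 1.76% of the windows of the main transcript occurred in another gene.

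**Figure D4:**
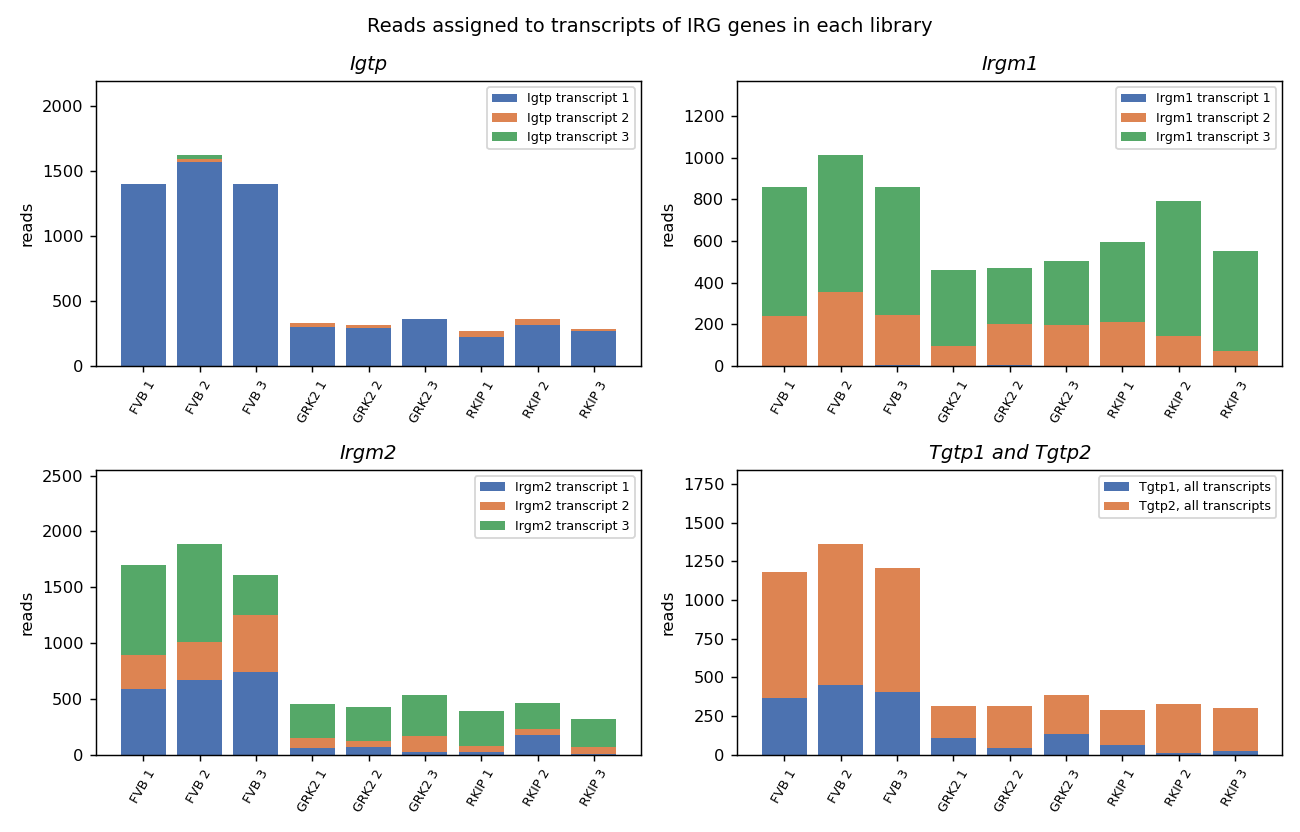
Reads (not normalized) in each library, stacked by transcript for *Igtp*, *Irgm1* and *Irgm2*, and by gene for *Tgtp1* and *Tgtp2*. *Igtp* transcript 1 dominates throughout, the transcripts of *Irgm1* and *Irgm2* move between replicates, and *Tgtp1* shrinks to 9 reads in Tg-RKIP replicate 2. The sum with *Tgtp2* was 288, 327 and 302 reads in Tg-RKIP replicates 1, 2 and 3, and 1182, 1364 and 1206 reads in FVB.

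Other genes of the IRG family did not all move with these 8. Of 17 further names listed, 8 were in the tables and 7 passed the filter. In Tg-RKIP, 4 of the 7 fell and none rose (median log2 fold change -0.70), and in the hearts labelled Tg-GRK2 4 fell and 1 rose (median -0.18). Over all genes tested, 37.1% fell and 36.8% rose in Tg-RKIP, and 12.2% fell and 12.2% rose in the hearts labelled Tg-GRK2. With scaling to library size alone, 3 of the 7 fell and 1 rose in Tg-RKIP, with a median of -0.32. The genes that fell in Tg-RKIP under TMM were *Gm12185* (-3.62), *9930111J21Rik1* (-3.09), *9930111J21Rik2* (-1.04) and *Gm4951* (-0.70). Of these, *Gm4951* did not pass with scaling to library size alone (adjusted p = 0.221, edgeR). *Gm12185* had 56, 46 and 53 reads in FVB and 3, 7 and 6 in Tg-RKIP, and it shares an exon with *Tgtp1*, so its reads may belong to either. In the hearts labelled Tg-GRK2, *Gm12185* (-2.20), *Gm4951* (-1.39), *Ifi47* (-0.93) and *9930111J21Rik2* (-0.18) fell and *Irgq* (0.19) rose. *9930111J21Rik2* did not pass there on the log2(TPM + 0.1) scale (limma, adjusted p = 0.393).

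*9930111J21Rik1* separated the 2 Tg groups. It had 78, 56 and 78 reads in FVB, 112, 106 and 98 in the hearts labelled Tg-GRK2, and 7, 18 and 7 in Tg-RKIP. Only the Tg-RKIP libraries were low. The difference between Tg-RKIP and the hearts labelled Tg-GRK2 was -3.57 on the log2 scale (SE 0.26, adjusted p = 4.07e-11, edgeR), and the value of the latter against FVB was 0.48 (adjusted p = 0.0653, edgeR). *Ifi47*, which encodes the effector IRGD, went the other way, with a log2 fold change of -0.11 in Tg-RKIP (adjusted p = 0.411, edgeR) and a difference of 0.82 between the 2 Tg groups (adjusted p = 1.22e-05, edgeR). *Irgq* (-0.05) and *Gm5431* (-0.04) did not pass in Tg-RKIP, and *Ifi47*, *Irgq* and *Gm5431* all lay above 0 with scaling to library size alone or on TPM, where *Irgq* was called higher. *Irgc1* had 0 to 2 reads per library.

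The steps that lead to IRG induction were compared next. *Ifng*, the gene of interferon-gamma itself, had 0 to 4 reads per library and did not pass the filter, so no difference was detectable at this depth. For its receptor, *Ifngr1* rose in Tg-RKIP by a log2 fold change of 0.29 and *Ifngr2* changed by -0.53. In the hearts labelled Tg-GRK2 *Ifngr2* rose by 0.14, and *Ifngr1* had a value of -0.02 (adjusted p = 0.681, edgeR). Of the JAK kinase genes, *Jak1* (-0.84) and *Jak2* (-0.57) fell in Tg-RKIP. In mean TPM *Jak1* was at 63.4 in FVB and 47.6 in Tg-RKIP, and *Jak2* at 12.3 and 10.4. In the hearts labelled Tg-GRK2 *Jak1* fell (-0.15) and *Jak2* did not pass (0.01, adjusted p = 0.908, edgeR).

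Of the 15 listed genes of interferon-gamma signalling, 14 were tested. In Tg-RKIP 5 rose, 6 fell and 3 did not pass, with a median of -0.18, and in the hearts labelled Tg-GRK2 1 rose, 6 fell and 7 did not pass, with a median of -0.11. Counts of this list and of those below stand beside the shares of all genes tested. These were 36.8% higher and 37.1% lower in Tg-RKIP, and 12.2% higher and 12.2% lower in the hearts labelled Tg-GRK2. The lowest in Tg-RKIP was *Nlrc5*, a transactivator of MHC class I genes, with a log2 fold change of -2.10, and it was -1.45 in the hearts labelled Tg-GRK2. On the log2(TPM + 0.1) scale with limma, however, *Nlrc5* did not pass in Tg-RKIP (adjusted p = 0.164) or in the hearts labelled Tg-GRK2 (adjusted p = 0.142). *Socs1* (0.87) and *Socs3* (0.86), which encode inhibitors of JAK signalling, rose in Tg-RKIP, and in the hearts labelled Tg-GRK2 they had values of -0.19 and 0.02 that did not pass. The Tg-RKIP median of the list lay at 0.19 with scaling to library size alone, so its sign depends on the scaling.

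The guanylate-binding proteins, a sister family of interferon-induced GTPases, were lower in both groups. Of 11 genes, 10 fell in Tg-RKIP (median -1.40) and 10 fell in the hearts labelled Tg-GRK2 (median -0.92), and none rose. In Tg-RKIP *Gbp10* (-3.39) and *Gbp4* (-2.25) had the lowest values and *Gbp2b* (-0.84) and *Gbp2* (-0.52) the highest of those that passed, while *Gbp11* (-0.12) did not pass. The list stayed at 10 of 11 lower with scaling to library size alone, and was at 8 of 11 on the log2(TPM + 0.1) scale with limma, where *Gbp2* (adjusted p = 0.0705) and *Gbp2b* (adjusted p = 0.135) did not pass.

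Of the 29 genes of the type I interferon response, 11 rose, 8 fell and 10 did not pass in Tg-RKIP (median -0.01). Over all genes tested 36.8% rose and 37.1% fell there, so nothing particular to the list is read from these counts. *Oas3* (2.38, from 2 to 3 reads per library in FVB to 11 to 26 in Tg-RKIP) and *Bst2* (0.77), both antiviral genes, had the highest values and *Mx2* (-1.16) and *Rsad2* (-1.09), also antiviral, the lowest. The receptor gene *Ifnar2* rose by 0.40, *Ifnar1* was at -0.05 and did not pass, and *Stat2* fell by 0.55 on the log2 scale. With scaling to library size alone 21 rose and 6 fell, *Ifnar1* (0.32) among those that rose. Under that scaling 9710 of all 15504 genes tested rose in Tg-RKIP and 2649 fell. With limma on log2(TPM + 0.1), *Stat2* (adjusted p = 0.243) and *Mx2* (adjusted p = 0.313) did not pass in Tg-RKIP. In the hearts labelled Tg-GRK2 1 rose and 8 fell (median -0.12), with *Stat2* at -0.26 (adjusted p = 0.358 with limma on log2(TPM + 0.1)) and *Ifnar1* at -0.01 and *Ifnar2* at -0.05 not passing.

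Antigen processing genes separated the 2 Tg groups. All 15 fell in the hearts labelled Tg-GRK2 (median -0.95), among them *Cd74* (-1.25) and *H2-Ab1* (-1.31), which belong to MHC class II presentation, and the peptide transporter gene *Tap1* (-1.21) and *Psme1* (-0.22), a proteasome activator gene. In Tg-RKIP 5 rose and 9 fell (median -0.08), with *H2-Ab1* (0.54) and *Cd74* (0.48) highest and *Tap1* (-0.61) and *Psme1* (-0.57) lowest. Between the 2 Tg groups 14 of 15 were higher in Tg-RKIP (median 0.63). With scaling to library size alone 11 rose and 2 fell in Tg-RKIP, so the direction of this list there depends on the scaling, whereas all 15 fell in the hearts labelled Tg-GRK2 under that scaling too. With limma on log2(TPM + 0.1), *Tap1* did not pass in Tg-RKIP (adjusted p = 0.176) nor *Psme1* in the hearts labelled Tg-GRK2 (adjusted p = 0.0901).

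**Figure D5:**
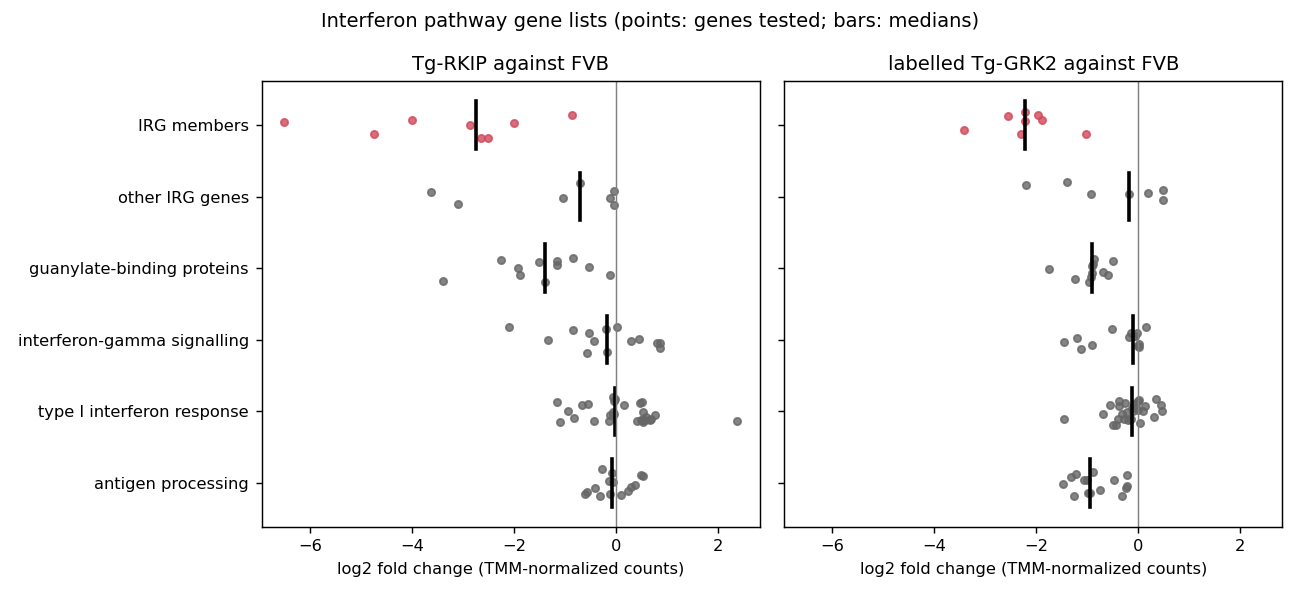
Log2 fold change of each tested gene (points) and the list median (black bars) for the 8 IRG genes in red and 5 further lists in grey, in Tg-RKIP and in the hearts labelled Tg-GRK2, each against FVB on 1 shared axis. The IRG median is -2.75 and -2.23, the guanylate-binding proteins lie at -1.40 and -0.92, and the antigen processing genes lie near 0 in Tg-RKIP but at -0.95 in the hearts labelled Tg-GRK2.

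Marker genes of several cell types were summed in TPM and set beside the IRG levels. On the log2(TPM + 0.1) scale the median of all genes lay 0.43 higher in Tg-RKIP than in FVB. The 17 T and NK cell markers summed to 5.73 to 6.70 TPM in FVB, 3.75 to 4.57 TPM in the hearts labelled Tg-GRK2 and 14.4 to 17.7 TPM in Tg-RKIP. Of the 12 tested, 10 rose in Tg-RKIP, and none was called in the hearts labelled Tg-GRK2 (median -0.76). The 12 macrophage markers, all higher in Tg-RKIP, summed to 328 to 340, 371 to 386 and 851 to 855 TPM in FVB, the hearts labelled Tg-GRK2 and Tg-RKIP.

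In the same group order, the 9 endothelial markers summed to 390 to 397, 398 to 405 and 725 to 745 TPM, and the 7 fibroblast markers to 948 to 974, 1047 to 1062 and 2362 to 2364 TPM. The 4 B cell markers reached 0.877 to 1.13, 1.30 to 2.03 and 6.44 to 7.78 TPM and the 7 adipocyte markers 17.3 to 19.1, 34.6 to 37.5 and 180 to 187 TPM. In Tg-RKIP 6 endothelial markers rose and 3 fell, and all fibroblast, B cell and adipocyte markers rose, as did all 5 airway markers tested. In the hearts labelled Tg-GRK2 the called markers were 7 higher and 1 lower for macrophages, 2 and 3 for endothelium, 5 and 0 for fibroblasts, 2 and 0 for B cells, 4 and 6 for cardiomyocytes and 5 and 0 for adipocytes and for airway. With limma on log2(TPM + 0.1) they were 4 and 1 for cardiomyocytes, 1 and 0 for endothelium and 0 and 0 for B cells. So the endothelial, fibroblast, macrophage, lymphocyte and adipocyte sums were highest in Tg-RKIP, where the IRG sum was low, and in FVB none of them exceeded the other groups apart from T and NK cell markers over the hearts labelled Tg-GRK2. The 10 cardiomyocyte markers summed to 49386 to 49690 TPM in FVB, 47340 to 48814 TPM in the hearts labelled Tg-GRK2 and 47404 to 48384 TPM in Tg-RKIP. FVB lay above both others without overlap, but by a far smaller margin than for the IRG sum. Single markers went different ways in mean TPM. *Tnni3* and *Myl2* were highest in FVB and *Tnnt2*, *Actc1*, *Nkx2-5* and *Actn2* in Tg-RKIP. *Myh6*, *Ryr2*, *Pln* and *Ttn* were highest in the hearts labelled Tg-GRK2. The part of cell composition in the IRG levels was not tested.

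Across the 9 libraries, the genes with the pattern most like the IRG mean were found by Pearson's r of log2 TMM-normalized CPM with the mean of the 8 standardized members. Among 11344 candidates with a mean of at least 100 counts, the 10 most alike ran from *Pdk4* (r = 0.999), which encodes a kinase that inhibits pyruvate dehydrogenase, to *Mat2a* (r = 0.990). *Aqp1*, *Amd1*, *Fuca2*, *Shld1*, *Vdac2*, *Ugp2* and *Rgs2* were among those between them. The 9 points form 3 groups and share library depth and composition, so r describes the order of the groups and carries no p. *Pdk4* was at 158 TPM in FVB, 87.3 TPM in the hearts labelled Tg-GRK2 and 90.8 TPM in Tg-RKIP. Mean levels of *Aqp1*, *Amd1*, *Shld1* and *Rgs2* on the TPM scale were likewise below FVB in both Tg groups. On that scale *Mat2a* rose from 77.9 (FVB) to 114 (Tg-RKIP) and *Ugp2* from 289 to 339. *Vdac2* rose from 450 to 479 and *Fuca2* from 228 to 252. For *Mat2a*, *Ugp2*, *Vdac2* and *Fuca2* the likeness in Tg-RKIP thus holds for TMM-normalized counts only.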

How the data were processed

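RNA of 9 mouse hearts was sequenced as single reads of 50 bases. The authors deposited read counts per Ensembl transcript as whole numbers without normalization, and TPM values per transcript, both on GRCm39 as the submitters' processing notes name it. The aligner, the counting program and their treatment of shared reads are not given in the sources used here, nor is strand, and FVB/N reads were set against a reference of another strain. The deposited tables also give transcript length.

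Counts and TPM were summed by gene name, with Python 3.11.15. Counts were tested with edgeR 4.0.16 in R 4.3.3 (TMM, filterByExpr, glmQLFit and glmQLFTest, 1 mean per group over 9 libraries), with Benjamini-Hochberg adjustment over 15504 genes and a threshold of 0.05. The steps were tested on simulated data. Replicates within a group were more alike than libraries of different groups. Each pair still differed by more than sampling noise (median ratio 1.37 to 1.53 within groups). That check cannot tell separate hearts from repeated libraries of the same RNA, and all 9 counted as separate samples by their labels. The fitted variation between replicates (common biological coefficient of variation) was 2.86%. Standard errors and calls rest on the spread between these replicates. Groups and replicate numbers came from the sample labels, and no sample was left out.

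The 8 genes and all lists were chosen with earlier results of these data known. Named genes were the members, the other IRG genes in the tables, the 2 highest and 2 lowest called genes of each list in Tg-RKIP, the ligand, receptor and *Stat2* genes, the targeted genes and the 10 most alike, of which 1 gene is not reported here. *Gbp11*, *Jak1* and *Jak2* were named after their values were seen. Promoters were RefSeq entries on GRCm38.p6, and shared windows of 50 bases came from GENCODE M21 transcripts, whose lengths equalled those deposited for the members. Alternatives were DESeq2 1.42.0, its size factors, library-size scaling, other count filters, a replicate block, fits of 2 groups, leaving out each library, limma 3.58.1 on log2(TPM + 0.1) and log2(TPM + 1), the most abundant transcript, and the summed *Tgtp* genes.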

Additional observations from a re-analysis of the deposited data

How the results depend on the processing

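The 8 IRG genes lay below FVB in 137 of 137 alternative values for Tg-RKIP and in 137 of 137 for the hearts labelled Tg-GRK2. Between these 2 groups 115 of 137 values were below 0. The alternatives reuse the same 9 libraries, and the 8 genes were chosen with these contrasts known. These tallies therefore describe the processing only and are not independent support. Over all genes, 11460 were called in Tg-RKIP against FVB, 3793 in the hearts labelled Tg-GRK2 against FVB and 11551 between the Tg groups. DESeq2 called 10504, 2673 and 10579, and limma on log2(TPM + 0.1) without a filter called 2060 in the hearts labelled Tg-GRK2. Of the type I interferon list, 9 genes were called there, against 5 with DESeq2, 5 with limma at either pseudocount and 3 with limma without a filter. Of the other IRG genes, 5 were called there, against 2 with limma at either pseudocount, and in Tg-RKIP 4 were called against 2 where every library needed at least 10 reads, which removes genes with few Tg-RKIP reads, *Tgtp1* among the 8. The causes of the other changes were not tested.

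Replicate numbers did not pair the libraries, since deviations of same-numbered libraries correlated between -0.05 and 0.05. With the replicate block 11401, 3660 and 11491 genes were called. The share of lower among called genes in Tg-RKIP was 50.2% under TMM and 21.4% with scaling to library size alone, and against the hearts labelled Tg-GRK2 it was 49.1% and 22.9%. The pseudocount bounds low genes, and at log2(TPM + 1) *F830016B08Rik* was at -3.89 and *Gm4841* at -2.58 in Tg-RKIP. Between the Tg groups *Tgtp2* turned to 0.02 without Tg-GRK2 replicate 2, and *Tgtp1* was at -2.72 without Tg-RKIP replicate 1 and -1.21 without replicate 2. Depth limits *Tgtp1*, *Gm4841* and *F830016B08Rik* most in Tg-RKIP, with 9 to 62 reads per library.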

Other observations

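Genes that lie beside the IRG genes but do not belong to the family varied in direction. Within 1 Mb of *Iigp1*, *Gm4841* and *F830016B08Rik*, 17 other genes were tested, of which 5 fell and 9 rose in Tg-RKIP, and 5 fell and 2 rose in the hearts labelled Tg-GRK2 (edgeR, adjusted p under 0.05). Around *Irgm1*, *Tgtp1* and *Tgtp2*, 10 of 19 fell and 6 rose in Tg-RKIP, with a median log2 fold change of -0.25, and 4 fell and 5 rose in the hearts labelled Tg-GRK2, with a median of 0.02. Around *Igtp* and *Irgm2*, 12 of 30 fell and 7 rose in Tg-RKIP, and 4 fell and 5 rose in the hearts labelled Tg-GRK2. The median of the neighbours around *Iigp1* was 0.21 in Tg-RKIP and 0.03 in the hearts labelled Tg-GRK2, beside -2.86 and -2.29 for *Iigp1* itself. Around *Irgm1*, *Tgtp1* and *Tgtp2*, single neighbours ran from -3.08 to 4.03 in Tg-RKIP and from -1.48 to 4.99 in the hearts labelled Tg-GRK2. The counts of neighbours are to be read against all genes tested. Of these 37.1% fell and 36.8% rose in Tg-RKIP, and 12.2% fell and 12.2% rose in the hearts labelled Tg-GRK2.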
